A study of Mus musculus with 446 samples.

Results

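The libraries described here are liver transcriptomes of male Diversity Outbred mice on a high-fat diet, compared between animals with much and with little Cd68 RNA in their abdominal adipose tissue. They number 40 of the 75 high-fat and 74 control-diet liver libraries, in a series of 446 libraries of liver, skeletal muscle and adipose tissue. Diversity Outbred mice are bred without inbreeding from several founder strains, and the animals differ from one another in genotype. All animals were male, arrived at 6 weeks of age and were housed singly on a control diet with 10 kcal% fat. Both groups compared then ate a high-fat diet with 60 kcal% fat for 14 weeks, and the control-diet mice set beside them stayed on the 10 kcal% diet for those 14 weeks. The mice were fasted at set times of the study to measure glucose. Whether they were fasted when the tissue was taken is not given in the sources used here, and body weight and genotype were not analysed here.

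The 2 groups were selected on measured values of the adipose libraries, not on a treatment. Of the 75 high-fat mice with a liver library, mouse 80 was left out by the rule and 17 more by its minimums: 6 for an adipose table sum under 50000, 10 for a liver with fewer than 8000 genes at a TPM of at least 1, and 1 for both. TPM is a measure of transcript abundance, corrected for gene length and expressed per library total, and the depth behind it is unknown. The 57 eligible mice were ranked by adipose Cd68 after scaling of each library, and the 20 highest and the 20 lowest form the groups, here called high and low. The 17 eligible mice between them enter the main comparison in neither group, and only some alternatives use them. The adipose table sums nearest the minimum were 40878 below it and 54822 above it, and the numbers of liver genes were 7604 and 8829. The last mouse inside the low group had 102.5 scaled TPM of Cd68 and the next mouse outside it 104.7, while the last inside the high group had 263 and the next outside it 243. Each library came from a different mouse, so the spread within a group is a spread between animals.

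Cd68 encodes a lysosomal membrane glycoprotein that is abundant in macrophages. In obesity, macrophages gather in adipose tissue, around dying adipocytes, and adipose tissue both stores triglyceride and releases fatty acids, which reach the liver through the blood. The liver stores incoming fatty acids as triglyceride in lipid droplets, exports them in lipoproteins, or burns them in mitochondria and peroxisomes, and the nuclear receptor PPAR alpha, which fatty acids activate, turns on genes of fatty acid uptake and oxidation.

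Genes of these pathways were higher together in the high group (values below), and the promoters of 4 of them are shown. They are the called members of the lists of fatty acid oxidation and lipid droplets that hold the motif searched and average at least 5 scaled TPM. PPAR alpha and related nuclear receptors bind pairs of the 6-base motif AGGTCA. The RefSeq reference sequence (GRCm38.p6) of the 250 bases before 1 listed start of the gene is printed 5′ to 3′, with AGGTCA or its reverse complement TGACCT in capitals. Acadm encodes a mitochondrial enzyme of fatty acid oxidation, Acot4 a peroxisomal thioesterase, Cd36 a fatty acid receptor and Plin2 a coat protein of lipid droplets.
Acadm (medium-chain acyl-CoA dehydrogenase), chr3:153944644-153944893, minus strand: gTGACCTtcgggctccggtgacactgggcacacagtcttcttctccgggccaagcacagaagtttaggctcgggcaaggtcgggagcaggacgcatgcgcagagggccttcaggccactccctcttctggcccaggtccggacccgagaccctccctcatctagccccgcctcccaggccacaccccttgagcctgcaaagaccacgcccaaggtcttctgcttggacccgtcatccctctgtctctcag
Acot4 (acyl-CoA thioesterase), chr12:84038129-84038378, plus strand: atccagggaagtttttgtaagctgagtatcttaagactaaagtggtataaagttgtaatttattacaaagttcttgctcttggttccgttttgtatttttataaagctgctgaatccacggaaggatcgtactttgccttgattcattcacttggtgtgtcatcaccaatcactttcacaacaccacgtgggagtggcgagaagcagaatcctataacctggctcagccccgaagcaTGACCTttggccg
Cd36 (fatty acid receptor), chr5:17835897-17836146, minus strand: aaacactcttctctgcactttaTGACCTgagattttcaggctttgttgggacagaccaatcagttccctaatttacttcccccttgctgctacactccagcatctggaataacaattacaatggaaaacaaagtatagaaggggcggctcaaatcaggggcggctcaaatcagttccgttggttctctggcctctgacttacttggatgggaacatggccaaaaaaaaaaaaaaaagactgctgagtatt
Plin2 (lipid droplet coat), chr4:86670060-86670309, minus strand: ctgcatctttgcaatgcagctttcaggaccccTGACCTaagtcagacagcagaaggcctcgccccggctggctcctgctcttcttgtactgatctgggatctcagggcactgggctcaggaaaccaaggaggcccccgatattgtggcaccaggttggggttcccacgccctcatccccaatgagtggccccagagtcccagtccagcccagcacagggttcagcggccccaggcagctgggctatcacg
The motif began 249 bases before the start in Acadm, 13 in Acot4, 228 in Cd36 and 218 in Plin2. A search on both strands found AGGTCA in 13.8% of 27025 RefSeq promoters of this length, 1 per gene symbol (the first listed). Other starts of the same gene were not searched. A pair of copies in 1 direction with 1 base between them, which holds the single motif, was in 0.04% of these promoters and in 0 of those of called genes. Of the 85 genes called below, 66 had a promoter in the table, too few to compare shares. Of these 66, 11 (16.7%) held AGGTCA on either strand, so most called genes lacked it. Among 8851 promoters of genes tested in liver the share was 11.2%. A match is a run of letters in a reference genome. It was not tested as a binding site, and the mice carry other alleles at many places.

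The labels of the tissues were checked first. Over 150 genes, those whose levels went together most in libraries of the same number, the liver library of each of the 40 mice correlated best with the muscle library of its own number, as all but 11 mice of the series did. The adipose library correlated best with the liver library of its own number in 29 of the 40 mice (17 high, 12 low) and in all but 47 mice of the series. The 150 genes were chosen on the own-number pairs themselves, which favours a match. A match therefore cannot show that a label is right. The adipose table holds 2728 genes, against 47643 in the liver table. Whether the other adipose libraries come from other animals was not tested. The leading counts below are therefore given also without those 11 mice, whose part in the results was not tested otherwise. No difference between the liver libraries of the 2 groups in scale factor, genes detected, or shares of TPM on coding, ribosomal RNA-like and mitochondrially encoded genes passed a two-sided permutation test (adjusted p = 0.902 for each of the 5 measures). The coding share was 54.2% ± 14.6 (SD, n = 20) in the high group and 57.7% ± 14.7 (SD, n = 20) in the low group.

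In adipose tissue, where the groups were chosen, scaled Cd68 spanned 29.5 to 102.5 (median 72.5) TPM in the low group and 263 to 771 (median 413) in the high group. The values in this paragraph are a description of the selection and carry no test. Adgre1, which encodes the macrophage surface protein F4/80, spanned 17.9 to 58.7 (median 36.9) and 97.9 to 308 (median 171) in the same mice. Both macrophage genes were thus separated between the groups without overlap. Timp1, an inhibitor of matrix proteases, spanned 2.91 to 14.4 (median 8.10) and 15.4 to 288 (median 76.6). Retn, the adipocyte hormone resistin, spanned 242 to 1759 (median 989) in the low group and 64.7 to 650.1 (median 312) in the high group. Slc2a4, the insulin-responsive glucose transporter of adipocytes, spanned 61.8 to 142.1 (median 106.5) and 15.4 to 107.1 (median 47.2), so that both adipocyte genes were lower where Cd68 was higher, with overlap. Cd163, another macrophage gene, had like medians of 36.4 and 39.02, and so had Lck of T cells with 2.31 and 1.92. Il7r, a cytokine receptor of lymphocytes, spanned 1.198 to 9.14 (median 3.44) and 5.98 to 62.5 (median 23.1), with all 20 high mice above the low median, so the lymphocyte genes did not go together. In bulk tissue, more macrophages and more RNA per macrophage cannot be told apart. On the control diet Cd68 was lower, with 18.2 to 36.2 (median 31.1) TPM in its 20 lowest and 47.8 to 429 (median 89.4) in its 20 highest of 52 eligible mice. The plot of adipose Cd68 by rank shows both diets.

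**Figure D1:**
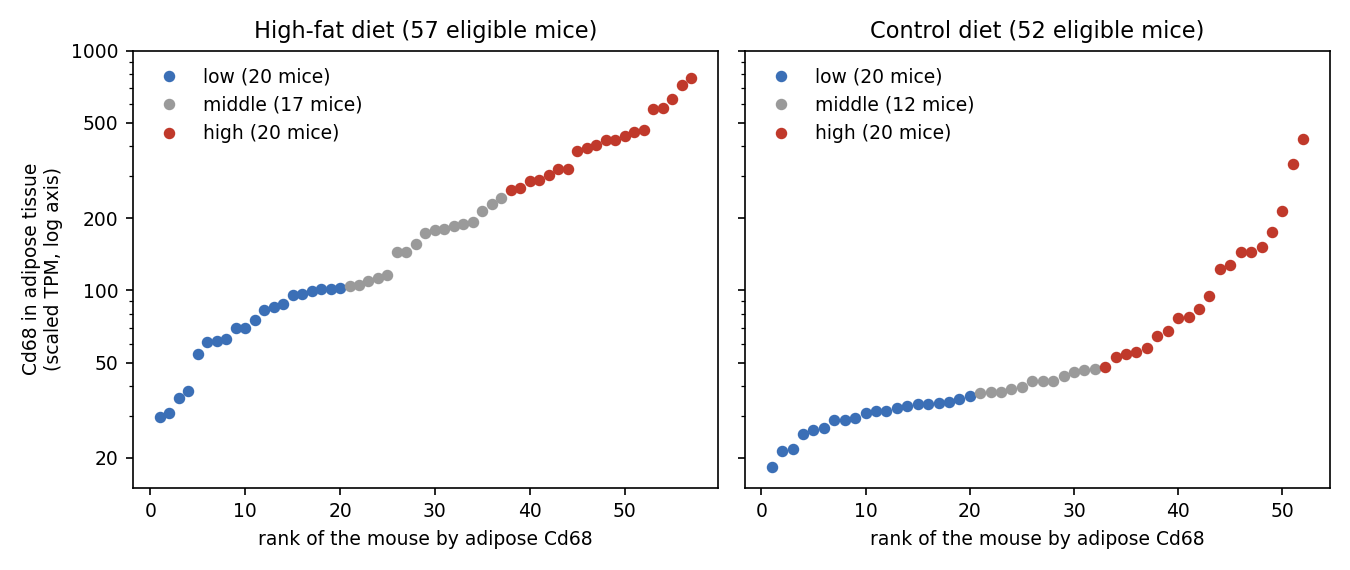
Scaled Cd68 TPM in adipose tissue (log axis) of every eligible mouse against its rank, with the high-fat diet on the left and the control diet on the right. Points are mice, coloured by the group used for the liver comparison. On the high-fat diet the low group ends at 102.5 and the high group starts at 263 TPM, and on the control diet they end at 36.2 and start at 47.8.

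The main comparison asked which liver genes differed between high-fat mice with high and with low adipose Cd68. Genes that burn and take up fatty acids, genes of fructose and glucose metabolism and a few genes of lipid droplets were higher in the livers of the high group, and 9 genes were lower, with Igfbp2 the largest of these differences. Of 12395 genes tested with limma on log2(scaled TPM + 1), 85 had a Benjamini-Hochberg adjusted p under 0.05, which is 0.686% of the genes. Higher in the high group were 76 (0.613%) and lower 9 (0.0726%). Most differences were small: 33 of the 85 reached 1.5-fold and 8 reached 2-fold. The median difference over all genes tested was -0.0047 on the log2 scale. An unadjusted p under 0.05 was reached by 1363 genes, 755 higher and 608 lower. Members of the lists named below, beyond up to 4 per list with the smallest p, were chosen after their values were seen. All differences below are high minus low on the log2(scaled TPM + 1) scale, where differences of weakly expressed genes come out too small.

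The number of calls depended on the mice and the scaling, and the direction of the 85 differences did not in any alternative that tested them. On TPM as deposited, with no scaling, 0 genes were called and 352 had an unadjusted p under 0.05, 64 of the 85 among them. Without the mice whose adipose library did not match their liver, 29 mice were left and 3 of the genes were called: Ech1, Uck1 and Rhbg. All 85 genes kept their sign there with an unadjusted p under 0.05, and their median difference was 0.48 in the direction of the main comparison, against 0.48 with all 40 mice. These 29 mice are part of the 40 in which the 85 genes were chosen. Kept signs and small p-values were thus largely set in advance, here and in the other alternatives, and are no separate support. Leaving out each of the 40 mice in turn kept 49 of the 85 calls throughout, and without the liver library Liver-128 the count was 51.

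Fatty acid oxidation held the most calls of any list. Of 30 genes of fatty acid oxidation and PPAR alpha targets, all of them tested, 12 were higher and 0 lower past the threshold, 24 had an unadjusted p under 0.05, and all 30 differences were positive. Their median difference was 0.31, against -0.0047 for all genes. Of all 12395 genes tested, 0.613% were called higher and 755 were higher at an unadjusted p under 0.05. Without the mice whose adipose library did not match their liver, 0 of the 30 were called, 19 had an unadjusted p under 0.05 and the median was 0.27. The plot of this list gives the genes named here on both diets.

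Hadh (ENSMUSG00000027984) encodes the mitochondrial 3-hydroxyacyl-CoA dehydrogenase of short chains. It spanned 75.7 to 130.3 (median 106.1) scaled TPM in the low livers and 110.8 to 178 (median 131.7) in the high livers. Every high liver lay above the low median, and 13 of 20 lay above the highest low liver. The difference was 0.37 ± 0.060 (SE), with a limma adjusted p of 0.000949. Acaa1b (ENSMUSG00000010651), a peroxisomal thiolase and PPAR alpha target, spanned 134.4 to 411 (median 219) in the low and 226 to 599 (median 398) in the high livers. The groups overlapped, yet 20 of 20 high livers exceeded the low median. It differed by 0.75 ± 0.13 (SE) (limma adjusted p = 0.00237).

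Acadm, whose promoter is shown above, spanned 118.6 to 225 (median 174) in the low and 155 to 283 (median 209) in the high livers, a difference of 0.35 ± 0.076 (SE) (limma adjusted p = 0.0206). Here the groups overlapped widely, with 17 of 20 high livers above the low median. Slc25a20, the carrier of acylcarnitines across the inner mitochondrial membrane, had medians of 47.7 and 57.6 and differed by 0.27 ± 0.055 (SE) (limma adjusted p = 0.0159). Etfdh, which passes electrons from the acyl-CoA dehydrogenases to ubiquinone, differed by 0.27 ± 0.060 (SE), Eci1, an isomerase for unsaturated fatty acids, by 0.41 ± 0.092 (SE), and Hadhb, a subunit of the trifunctional protein, by 0.22 ± 0.051 (SE). Their adjusted p-values from limma were 0.0206, 0.0216 and 0.0262. Acot1, Acot2 and Acot4 encode acyl-CoA thioesterases, which release free acids from coenzyme A. These genes differed by 0.92, 0.66 and 0.79, with limma adjusted p-values of 0.0303, 0.0271 and 0.0262. The Acot1 call was lost in 5 of the 40 analyses that left out 1 mouse. Acot1 and Acot2 are closely similar neighbours, and how reads were divided between them is not known. Vnn1, a pantetheinase and PPAR alpha target, had medians of 1.85 and 4.69 and differed by 1.16 ± 0.25 (SE) (limma adjusted p = 0.0206).

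Other members of the list did not pass the threshold. Cyp4a14 and Cyp4a10, microsomal fatty acid hydroxylases and classical PPAR alpha targets, had the largest differences of the list, 1.84 ± 0.55 (SE) and 1.55 ± 0.44 (SE), and adjusted p-values of 0.114 and 0.0887 by limma. Cyp4a14 spanned 0.576 to 42.8 (median 3.97) in the low and 0.209 to 255 (median 24.6) in the high livers, so both groups ran from near 0 to high values. Cpt1a, the gate of mitochondrial fatty acid import, differed by 0.24 ± 0.073 (SE) (limma adjusted p = 0.120). Ppara itself had medians of 52.8 and 63.9 and a difference of 0.27 ± 0.091 (SE) (limma adjusted p = 0.183). Fgf21, a hormone secreted by the liver, differed by 0.63 ± 0.35 (SE), with a 95% interval of -0.075 to 1.33 and an adjusted p of 0.523. Pdk4, a kinase that closes pyruvate oxidation and rises in fasting, differed by 0.11 ± 0.15 (SE) (limma adjusted p = 0.841), and Ppargc1a, a coactivator induced in fasting, by 0.066 ± 0.13 (SE) (limma adjusted p = 0.893).

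**Figure D2:**
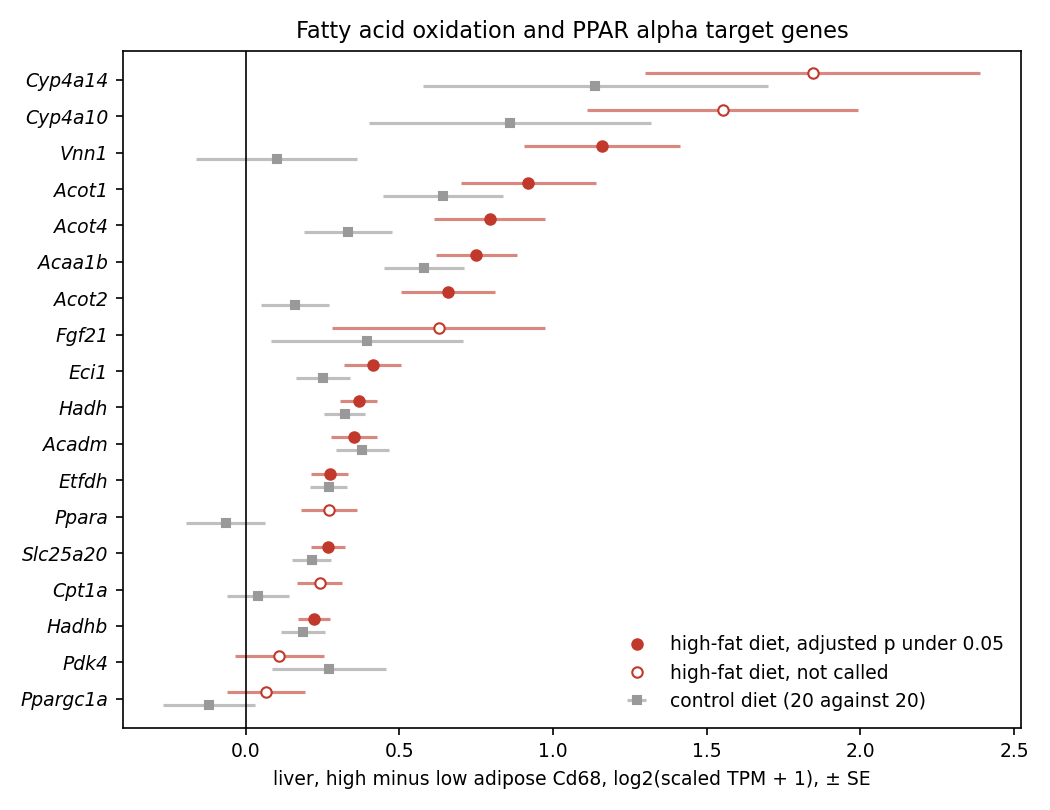
Difference between livers with high and low adipose Cd68 (log2(scaled TPM + 1), bars are SE, 20 against 20 mice per diet) for the 18 genes of the fatty acid oxidation and PPAR alpha target list that the text names, of 30. Red circles are the high-fat diet, filled where the adjusted p was under 0.05 (11 of the 18 genes), and grey squares the control diet, and all 18 red points lie right of 0.

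Several called genes outside the list act on fatty acids or fatty aldehydes. They are named after their values were seen, except where they were among the 15 largest rises or lay nearest to adipose Cd68. Ech1 (ENSMUSG00000053898), a dienoyl-CoA isomerase shared by mitochondria and peroxisomes, had the smallest adjusted p of all genes. It spanned 131.8 to 196 (median 169.6) scaled TPM in the low and 162 to 308 (median 229) in the high livers. As many as 15 of 20 high livers were above every low liver, and its difference was 0.42 ± 0.063 (SE) (limma adjusted p = 0.000545). Aldh3a2 (ENSMUSG00000010025), which oxidises fatty aldehydes, spanned 20.6 to 83.9 (median 47.1) and 37.9 to 163 (median 88.1), and 12 of 20 high livers were above every low liver. Its difference was 0.98 ± 0.16 (SE) (limma adjusted p = 0.000836). Slc22a5, the plasma membrane carrier of carnitine, spanned 3.11 to 6.98 (median 4.84) and 5.08 to 13.1 (median 6.81), with all 20 high livers above the low median. It differed by 0.42 ± 0.087 (SE) (limma adjusted p = 0.0171). Decr1, Acad11, Hsdl2, Dhrs4 and Pex11a, further mitochondrial or peroxisomal genes, were higher by 0.35, 0.28, 0.40, 0.24 and 0.42, with adjusted p-values between 0.0206 and 0.0484. Leaving out 1 mouse ended the Pex11a call for 27 of the 40 mice, the Dhrs4 call for 1 and the calls of the other 3 genes for 0. In the list of electron transport genes 0 of 26 genes were called in either direction, 0 had an unadjusted p under 0.05 and the median difference was -0.0088.

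Fatty acid uptake and lipid droplets formed the second group. Of 21 tested genes of droplets and triglyceride storage, 5 were higher past the threshold and 0 lower, and the median difference was 0.14, against -0.0047 for all genes. Over all genes tested 0.613% were called higher. Without the mice whose adipose library did not match their liver, 0 of the 21 were called and the median was 0.26. Apoa4, a lipoprotein component secreted with triglyceride, spanned 68.6 to 703 (median 221) scaled TPM in the low and 199.9 to 2259 (median 561) in the high livers. All but 1 of the high livers stood above the low median, and the difference was 1.52 ± 0.30 (SE) (limma adjusted p = 0.0147). Cd36 (ENSMUSG00000002944) spanned 7.03 to 27.4 (median 13.8) in the low and 9.90 to 157 (median 26.8) in the high livers. The high group reached far above the low one, with 10 of 20 livers over every low liver, while others lay within it. Cd36 differed by 1.13 ± 0.26 (SE) (limma adjusted p = 0.0262). Fitm1, which partitions triglyceride into droplets, spanned 1.39 to 24.1 (median 7.37) and 4.60 to 45.7 (median 20.2) and differed by 1.25 ± 0.29 (SE) (limma adjusted p = 0.0262).

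Plin2 spanned 100.3 to 202 (median 154) in the low and 145.7 to 318 (median 187) in the high livers and differed by 0.40 ± 0.097 (SE) (limma adjusted p = 0.0342). Pparg, the nuclear receptor that drives fat storage and also a marker of adipocytes, was weakly expressed, with medians of 0.724 and 1.71, and differed by 0.59 ± 0.15 (SE) (limma adjusted p = 0.0366). Leaving out 1 mouse ended the Plin2 call for 9 of the 40 mice and the Pparg call for 17. The adipocyte markers Adipoq and Lep were listed at 0 in the median liver of both groups. Mogat1, an enzyme of triglyceride synthesis and a target of Pparg, had medians of 0.738 and 1.63 and did not pass the threshold (0.81 ± 0.26 (SE), limma adjusted p = 0.151). Cidec, a droplet fusion protein, differed by 0.094 ± 0.19 (SE) (limma adjusted p = 0.901), and Cidea was under the minimum for testing, with no liver above 1.15 scaled TPM.

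Mfsd2a (ENSMUSG00000028655), a transporter of lysophospholipids that the liver induces in fasting, was among the 15 largest rises. It spanned 2.70 to 55.6 (median 13.97) in the low and 11.2 to 77.5 (median 38.6) in the high livers, with 19 of 20 high livers above the low median. Its difference was 1.43 ± 0.27 (SE) (limma adjusted p = 0.00732). The 17 mice between the groups had a median of 28.8, nearer to the high group. Cd36 by contrast had a median of 14.99 in the middle mice, 13.8 in the low and 26.8 in the high mice. The middle mice thus lay beside the low group for Cd36. The strip plots of 9 genes show these patterns mouse by mouse.

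**Figure D3:**
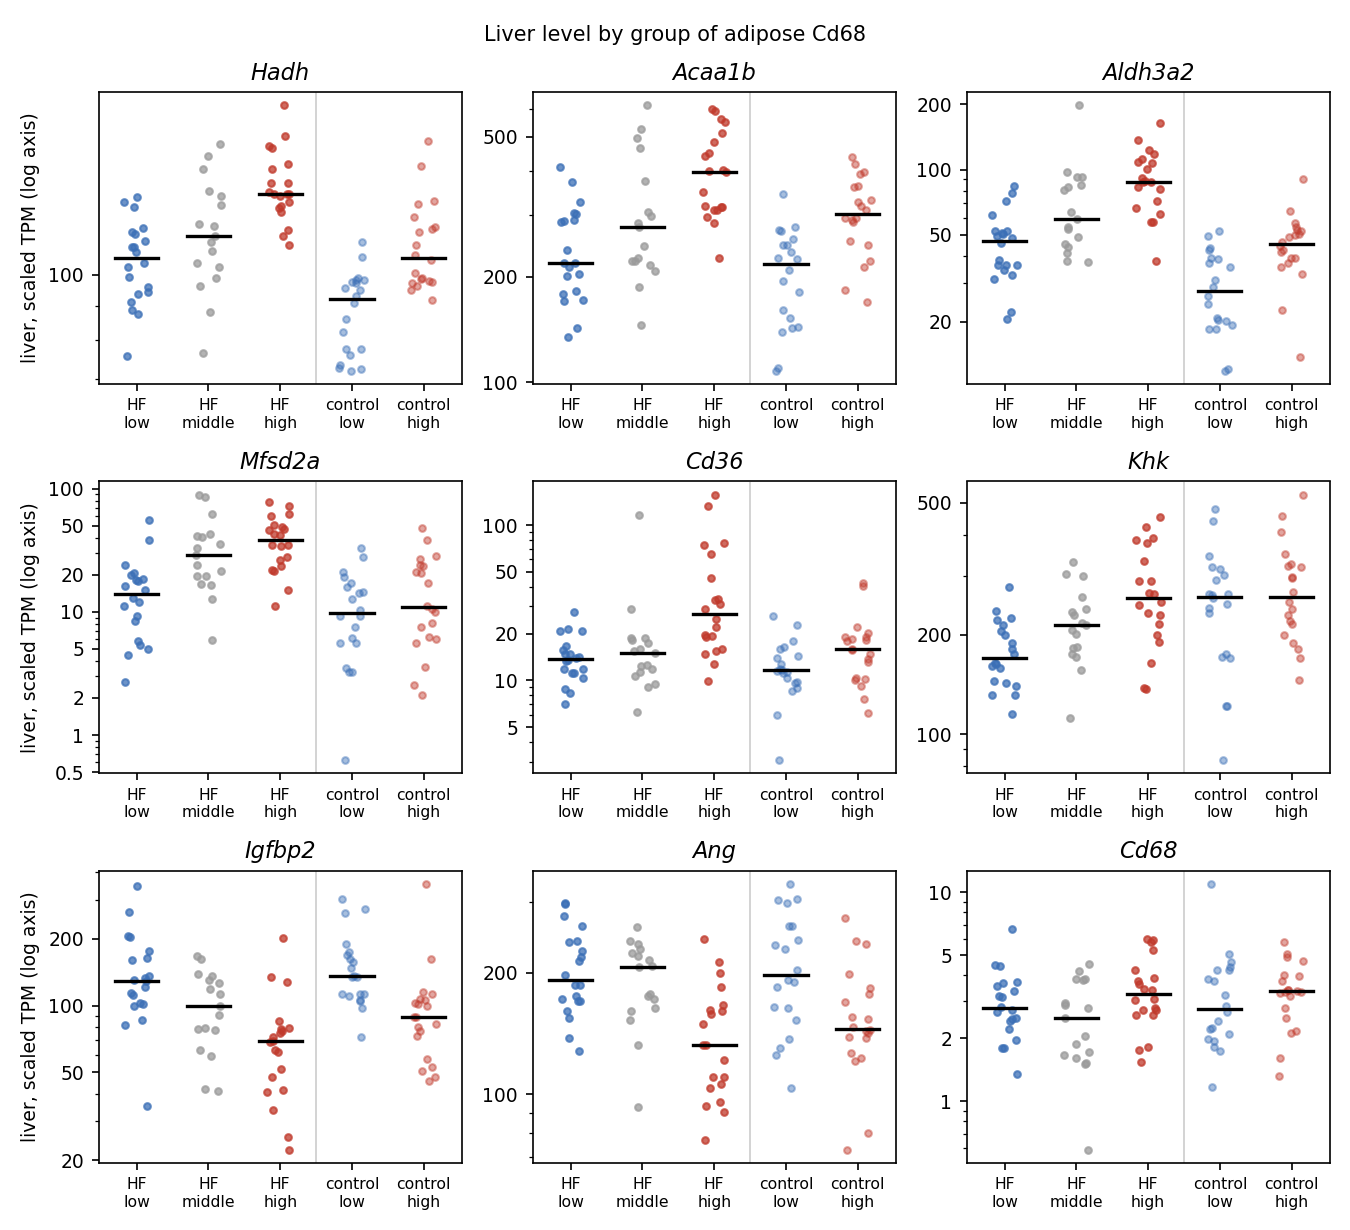
Liver level (scaled TPM, log axis) of 9 genes in every mouse, by group of adipose Cd68 on the high-fat diet (HF low 20, middle 17, high 20 mice) and on the control diet (low 20, high 20 mice). Points are mice and bars are group medians. Hadh, Acaa1b, Aldh3a2, Mfsd2a, Cd36 and Khk were higher and Igfbp2 and Ang lower in the HF high group, while liver Cd68 had medians of 2.79 and 3.26 in the HF low and high groups.

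Genes of sugar metabolism were the third group. Of 17 tested genes of gluconeogenesis and glycolysis, 3 were higher past the threshold and 0 lower, 8 had an unadjusted p under 0.05 and 16 of the differences were positive, with a median of 0.26. Over all 12395 genes tested, 0.613% were called higher, 755 were higher at an unadjusted p under 0.05 and the median was -0.0047. Without the mice whose adipose library did not match their liver, 0 of the 17 were called, 7 had an unadjusted p under 0.05 and their median was 0.20. Khk (ENSMUSG00000029162), the kinase that starts fructose breakdown, spanned 114.9 to 278 (median 169.8) scaled TPM in the low and 136.6 to 453 (median 258) in the high livers. The groups overlapped, and 8 of 20 high livers exceeded every low liver. It differed by 0.57 ± 0.13 (SE) (limma adjusted p = 0.0271). Tkfc, which phosphorylates glyceraldehyde in fructose breakdown, was among the 15 largest rises at 0.77 ± 0.19 (SE) (limma adjusted p = 0.0422), a call that was lost in 21 of the 40 analyses that left out 1 mouse. Fbp1, an enzyme of gluconeogenesis, spanned 303 to 724 (median 543) and 445 to 1238 (median 730.2) and differed by 0.47 ± 0.11 (SE) (limma adjusted p = 0.0271).

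Pklr, the liver pyruvate kinase, had medians of 39.2 and 81.6 but did not pass the threshold (0.84 ± 0.22 (SE), limma adjusted p = 0.0529). Pcx and Slc2a2, pyruvate carboxylase and the liver glucose transporter, differed by 0.35 and 0.27 with adjusted p-values of 0.0633 and 0.0633. Pck1, the regulated step of gluconeogenesis, differed by 0.22 ± 0.14 (SE) (limma adjusted p = 0.601), and G6pc, which releases glucose, by 0.33 ± 0.23 (SE) (limma adjusted p = 0.642).

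Of 22 tested genes of fatty acid synthesis, 1 was higher past the threshold and 0 lower, with a median difference of 0.17. Over all genes tested 0.613% were called higher and the median was -0.0047. The called gene was Elovl5, which lengthens polyunsaturated fatty acids. It spanned 80.6 to 239 (median 135.9) scaled TPM in the low and 115.02 to 471 (median 229) in the high livers and differed by 0.66 ± 0.16 (SE) (limma adjusted p = 0.0350), a call lost in 16 of the 40 analyses that left out 1 mouse. Me1, which supplies NADPH, had medians of 16.7 and 37.4 and an adjusted p of 0.0529. Scd1, the stearoyl-CoA desaturase, spanned 5.46 to 287 (median 21.999) in the low and 4.54 to 543 (median 86.2) in the high livers, and did not pass the threshold (1.43 ± 0.60 (SE), limma adjusted p = 0.342). Control-diet livers had a Scd1 median of 1508. Fasn, the fatty acid synthase, had medians of 53.8 and 81.5 (limma adjusted p = 0.717).

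Cholesterol synthesis and uptake had the lowest median of the lists with at least 5 tested genes, -0.32 over 24 genes. Of the 24 differences 22 were negative and 0 were called in either direction. An unadjusted p under 0.05 was found for 2 of the 24, against 1363 of all 12395 genes. On the control diet the median of the list was 0.11. Mvk, the mevalonate kinase, had medians of 10.97 and 6.96 and an adjusted p of 0.163. In bile transport, 1 of 19 tested genes was called, and that was higher. At an unadjusted p under 0.05, 1 gene of this list was higher and 4 were lower. Abcb4, which exports phosphatidylcholine into bile, spanned 46.2 to 123.97 (median 70.7) and 72.6 to 131.2 (median 88.9) and differed by 0.38 ± 0.090 (SE) (limma adjusted p = 0.0298), a call lost in 5 of the 40 analyses that left out 1 mouse. All 20 high livers lay above the low median of Abcb4. Abcb11, the bile salt export pump, had medians of 121.8 and 104.3 and an adjusted p of 0.0633.

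Of the 9 genes lower in the high group, Igfbp2 (ENSMUSG00000039323) differed most. It encodes a binding protein of insulin-like growth factors, and spanned 35.3 to 346 (median 129.2) scaled TPM in the low and 22.4 to 201 (median 68.9) in the high livers. All but 2 of the high livers were below the low median, and the ranges overlapped. The difference was -1.03 ± 0.22 (SE) (limma adjusted p = 0.0206). It was the only call among 23 genes of insulin signalling and the IGF axis. Igfbp1, which insulin represses, differed by -0.32 ± 0.46 (SE) (limma adjusted p = 0.858), Irs2, an insulin receptor substrate, by -0.39 ± 0.15 (SE) (limma adjusted p = 0.264), and Igf1 by -0.025 ± 0.078 (SE) (limma adjusted p = 0.937).

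Ang and Rnase4, secreted ribonucleases, share a locus, so reads may be split between them and the pair may stand for 1 difference. Ang spanned 127.8 to 298 (median 192) in the low and 77.2 to 242 (median 132.5) in the high livers and differed by -0.57 ± 0.12 (SE), and Rnase4 spanned 349 to 789 (median 509) and 202 to 661 (median 355) and differed by -0.48 ± 0.11 (SE). Their adjusted p-values by limma were 0.0206 and 0.0222, and 9 of 20 high livers lay below every low liver for each gene. Pla2g12a, a secreted phospholipase, differed by -0.47 ± 0.11 (SE), Atp8b1, a phospholipid flippase of the bile canaliculus, by -0.31 ± 0.067 (SE), and Rbmxl1, an RNA-binding protein, by -0.27 ± 0.060 (SE), with adjusted p-values of 0.0285, 0.0206 and 0.0222. Also lower, and named after their values were seen, were Myh10, a non-muscle myosin, by -0.39, and the predicted genes 1700023H06Rik and Gm45792 by -0.71 and -0.69. The call of 1700023H06Rik was lost in 25 of the 40 analyses that left out 1 mouse, that of Myh10 in 1 and that of Gm45792 in 0.

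Among cytochromes P450, Cyp2c38 spanned 0 to 15.1 (median 1.78) scaled TPM in the low and 0.162 to 42.8 (median 8.28) in the high livers and differed by 1.73 ± 0.36 (SE) (limma adjusted p = 0.0184). Cyp2b9, which is higher in female than in male mouse liver, had the largest difference of all calls, 2.11 ± 0.52 (SE) (limma adjusted p = 0.0415). It spanned 0 to 8.44 (median 0.330) in the low and 0 to 73.8 (median 8.28) in the high livers, and its call was lost in 25 of the 40 analyses that left out 1 mouse. The middle mice had a Cyp2b9 median of 0.142. Cyp2c38 and Cyp2b9 belong to families of near-identical copies, and reads may be divided among them. Of 21 listed female-biased genes, 9 were tested, 1 was called higher, 0 lower and the median difference was 0.41. With no filter on low values all 21 were tested, 0 were called and the median was 0.32. Of 20 tested male-biased genes 0 were called and the median was -0.26. On the control diet the medians were 0.032 over 8 female-biased and 0.049 over 20 male-biased genes. Of 21 tested genes of xenobiotic metabolism, 1 was called: Ephx1, a microsomal epoxide hydrolase, was higher by 0.42 ± 0.11 (SE) (limma adjusted p = 0.0428), a call lost in 23 of the 40 analyses that left out 1 mouse. Of 12 pericentral hepatocyte genes, 1 was called: Rhbg, an ammonium transporter, spanned 0.737 to 3.997 (median 2.48) and 2.44 to 13.7 (median 4.17) and differed by 0.78 ± 0.15 (SE) (limma adjusted p = 0.00873). At an unadjusted p under 0.05, 1 pericentral gene was higher and 2 were lower, and in the xenobiotic list 5 were higher and 4 lower. Over all genes tested 0.686% were called.

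Other genes among the 15 largest rises belong to no list. Pctp, a phosphatidylcholine transfer protein, spanned 3.43 to 19.7 (median 10.1) scaled TPM in the low and 6.56 to 31.6 (median 18.9) in the high livers and differed by 0.76 ± 0.19 (SE) (limma adjusted p = 0.0406), a call lost in 22 of the 40 analyses that left out 1 mouse. Slc17a8, a vesicular glutamate transporter, spanned 3.72 to 19.9 (median 8.30) and 6.42 to 34.6 (median 17.2) and differed by 0.89 ± 0.21 (SE) (limma adjusted p = 0.0342), a call lost in 12 of these 40. Tcim spanned 3.74 to 27.97 (median 9.55) and 6.88 to 53.4 (median 16.3) and differed by 0.92 ± 0.21 (SE) (limma adjusted p = 0.0274). All 3 had overlapping groups with higher medians in the high one. Named after its values were seen, S100a10, the partner of annexin A2, spanned 43.2 to 139.9 (median 97.6) and 88.2 to 197 (median 137.2) and differed by 0.50 ± 0.12 (SE) (limma adjusted p = 0.0274). Slc26a1, a sulfate and oxalate transporter, spanned 49.1 to 81.5 (median 60.95) and 64.2 to 91.2 (median 72.8) and differed by 0.26 ± 0.053 (SE) (limma adjusted p = 0.0159), with all 20 high livers above the low median.

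The macrophage genes that separated the groups in adipose tissue did not separate them in liver. Liver Cd68 (ENSMUSG00000018774) spanned 1.35 to 6.69 (median 2.79) scaled TPM in the low and 1.54 to 5.98 (median 3.26) in the high group. The groups overlapped almost fully. The difference was 0.15 ± 0.13 (SE), with a 95% interval of -0.11 to 0.41 and a limma adjusted p of 0.715. Adgre1 differed by -0.037 ± 0.14 (SE), with a 95% interval of -0.33 to 0.25 and an adjusted p of 0.952. Clec4f, a lectin of resident Kupffer cells, spanned 22.2 to 50.8 (median 32.9) and 17.5 to 55.7 (median 31.5) and differed by -0.079 ± 0.13 (SE) (limma adjusted p = 0.867). Of 18 macrophage and Kupffer cell markers, 14 were tested, 0 were called in either direction, 0 had an unadjusted p under 0.05 and the median difference was -0.066. Their summed level spanned 115.9 to 380 (median 205) in the low and 101.1 to 376 (median 197) in the high group. A p above the threshold does not show that the levels were equal. With 0.686% of all genes called, 0 calls among 14 genes do not set this list apart from other genes.

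Of 15 genes of recruited and lipid-associated macrophages, 7 were tested and 0 called. Trem2 and Gpnmb, receptors of such cells, were under the minimum, with medians of 0.363 and 0.227 for Trem2 and 0.0893 and 0.0388 for Gpnmb. Ccl9, a chemokine whose adipose level was higher in all 20 high mice than the low median, had liver medians of 42.1 in the low and 27.7 in the high group (limma adjusted p = 0.123). None of 13 tested chemokines and cytokines, 20 interferon response genes, 19 collagen and matrix genes, 12 endothelial and 13 stellate cell markers was called. Over all genes tested 0.686% were called, so 0 calls do not set lists of this size apart from other genes. At an unadjusted p under 0.05, 0 chemokines and cytokines were higher and 2 lower, and 0 interferon genes were higher and 1 lower. For collagen and matrix genes these counts were 2 and 2, for endothelial markers 1 and 1, and for stellate cell markers 1 and 3. Of 24 acute phase genes 0 were called. Saa1, serum amyloid A, spanned 10.2 to 345 (median 62.2) in the low and 15.01 to 7817 (median 80.8) in the high group. Its highest value belonged to 1 mouse, and the medians were close (0.43 ± 0.55 (SE), limma adjusted p = 0.828). Col1a1, a collagen of scar tissue, differed by 0.11 ± 0.18 (SE) (limma adjusted p = 0.869). Neutrophil markers were all under the minimum, and 2 of 15 lymphocyte markers were tested with 0 called. The plot of list medians sets these groups beside the metabolic ones.

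**Figure D4:**
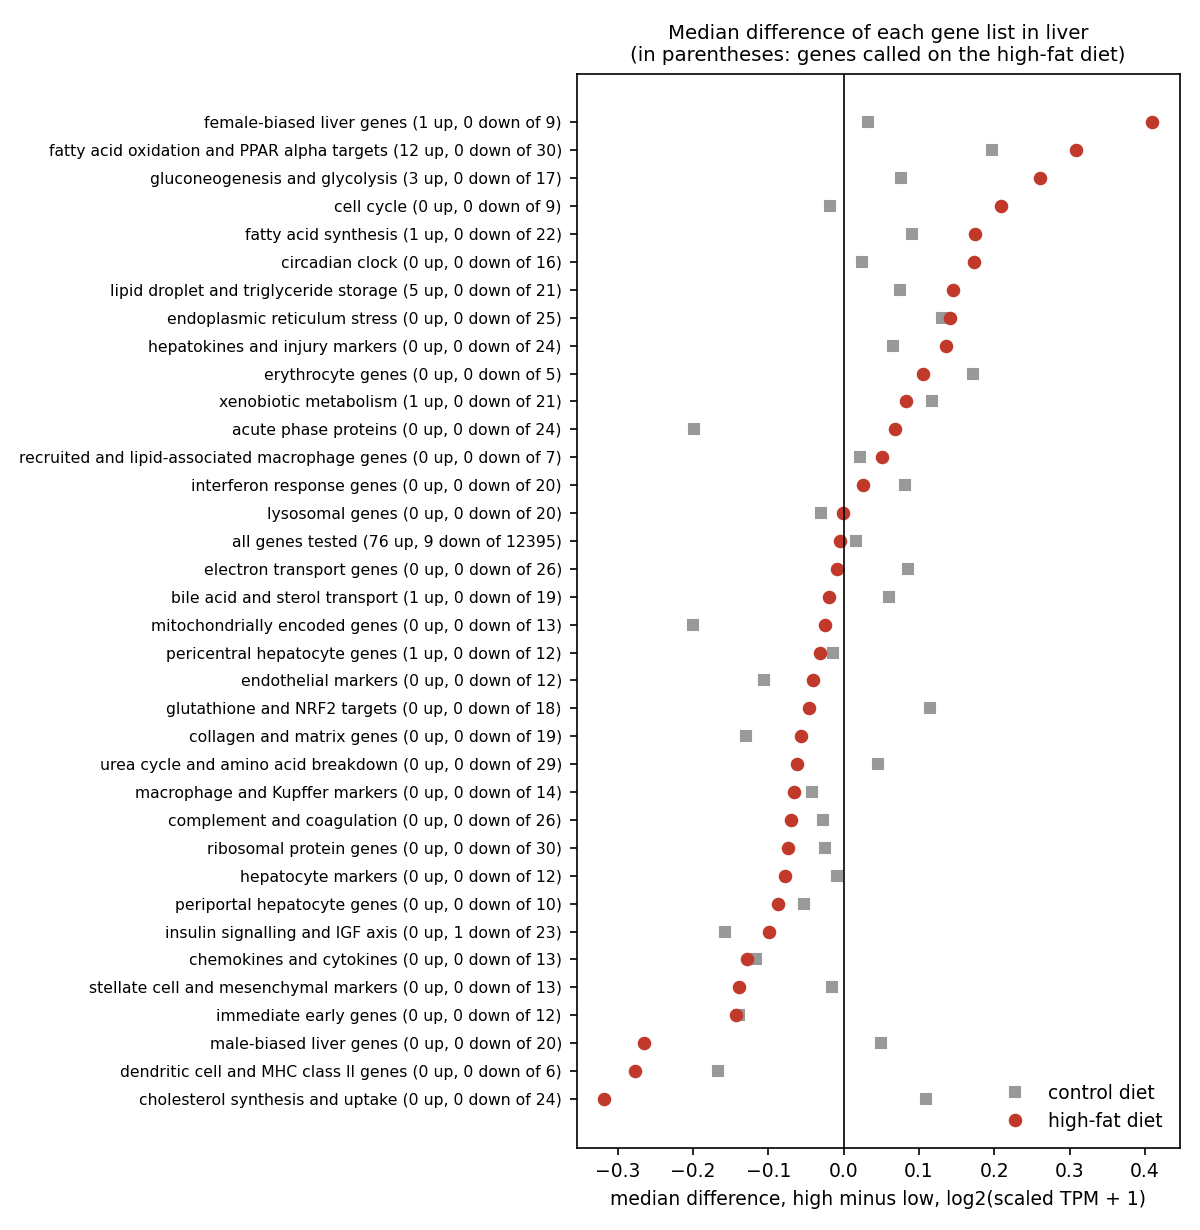
Median difference between livers with high and low adipose Cd68 (log2(scaled TPM + 1)) of every gene list with at least 5 tested genes, on the high-fat diet (red) and the control diet (grey). Each label gives the genes called higher and lower on the high-fat diet and the number tested. Fatty acid oxidation stands at 0.31 with 12 of 30 genes called, and macrophage and Kupffer markers at -0.066 with 0 of 14 called. Of all genes tested 0.686% were called.

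The same contrast was made in control-diet mice, which are other animals, and no gene passed there. The library measures were compared between groups on the high-fat diet only. Of the control livers used, those of mice 45 and 65 did not correlate best with their own muscle library. Those of mice 35, 58 and 65 had a low scale factor (under the median divided by 3), with coding shares of 19.7%, 17.8% and 15.9%. The 40 high-fat livers held 0 of low scale factor. Of 12413 genes tested between the 20 control mice highest and the 20 lowest in adipose Cd68, 0 were called by limma (0%), 1551 had an unadjusted p under 0.05 and the smallest adjusted p was 0.0566. limma without trend and robust settings and limma with array weights also called 0. Other settings made calls: 22 with only genes averaging at least 5 scaled TPM, and 27 without the control mice whose adipose library did not match their liver. That last count is above the 3 of the high-fat diet under the same setting, so which diet had more calls depended on those mice. The difference of the contrast between diets was tested in the 80 libraries together: 0 of 13532 genes were called (0%), 937 had an unadjusted p under 0.05, the smallest adjusted p was 0.321, and both other settings of limma called 0. The diet difference was not tested without the mice whose adipose library did not match their liver. So no gene was shown to differ between the diets in its relation to adipose Cd68. The groups also span different Cd68 levels on the 2 diets.

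Of the 85 genes called on the high-fat diet, 82 were tested on the control diet, and 75 of them (91.5%) had the same sign there, against 58.5% of 12154 genes tested on both diets. Of the 82, 39 had the same sign and an unadjusted p under 0.05 on the control diet, against 1042 of the 12154 genes. The median difference of the 82 genes, both directions mixed, was 0.42 on the high-fat and 0.22 on the control diet. For the 73 called higher the medians were 0.45 and 0.25, and for the 9 called lower -0.48 and -0.22. The genes were chosen by their high-fat values, which favours larger differences there. These medians therefore cannot show whether the differences were smaller on the control diet. The fatty acid oxidation list had a median of 0.20 on the control diet, with 16 of 30 genes higher at an unadjusted p under 0.05 and 0 lower. Hadh spanned 72.2 to 111.8 (median 91.97) scaled TPM in the low and 91.7 to 158 (median 106.01) in the high control livers, a difference of 0.32 ± 0.066 (SE) with a limma adjusted p of 0.0566. Acaa1b differed by 0.58 ± 0.13 (SE), Acadm by 0.38 ± 0.086 (SE), Acat1, a thiolase of ketone bodies, by 0.39 ± 0.086 (SE) and Decr1 by 0.38 ± 0.087 (SE) on the control diet. Igfbp2 differed by -0.69 ± 0.19 (SE) there, and Uck1, a uridine kinase, by 0.47 ± 0.12 (SE) against 0.48 ± 0.075 (SE) on the high-fat diet.

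For some genes called on the high-fat diet the control-diet difference was no larger than its SE. Apoa4 differed by 0.089 ± 0.34 (SE) there, with an unadjusted p of 0.00270 for the difference between diets and an adjusted p of 0.495. Vnn1 differed by 0.10 ± 0.26 (SE), Mfsd2a by 0.33 ± 0.35 (SE), Slc22a5 by 0.050 ± 0.10 (SE) and Rab30, a small GTPase, by -0.031 ± 0.20 (SE). None of these passed the test of the diet difference, with adjusted p-values of 0.577, 0.655, 0.639 and 0.632. The scatter of called genes places each one on both diets.

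**Figure D5:**
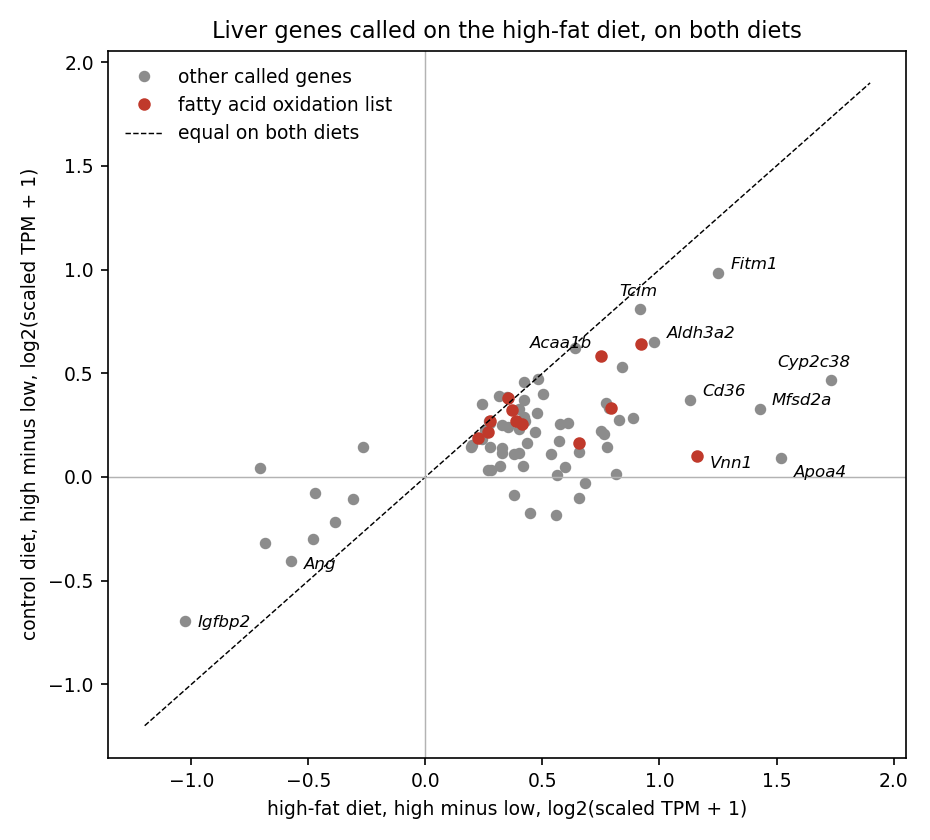
Difference between high and low adipose Cd68 in liver (log2(scaled TPM + 1)) on the control diet against that on the high-fat diet, for the 82 genes called on the high-fat diet and tested on both. Red points belong to the fatty acid oxidation list and the dashed line marks equal differences. Of the 82 points, 75 have the same sign on both axes, and Apoa4 and Vnn1 lie near 0 on the control axis.

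The liver genes most like adipose Cd68 were sought by Spearman's rho over all 57 eligible high-fat mice, as a description without a test, and 40 of these mice are those compared above. Among genes that average at least 5 scaled TPM, the highest were Xpot, a transfer RNA exporter, with rho = 0.69, Aldh3a2 with 0.67, Uck1 with 0.64, Hadh with 0.64 and Mfsd2a with 0.64. Uck1 spanned 10.7 to 21.3 (median 16.2) scaled TPM in the low and 17.2 to 30.6 (median 22.1) in the high livers, and all 20 high livers lay above the low median (limma adjusted p = 0.000656). Xpot spanned a narrow range, 10.3 to 14.7 (median 11.8) scaled TPM in the low and 11.7 to 20.8 (median 14.9) in the high livers. It differed by 0.33 ± 0.056 (SE) (limma adjusted p = 0.00162). The most negative were Igfbp2 with -0.60, Pla2g12a with -0.57, Rbmxl1 with -0.55, Ang with -0.54 and Tm2d2, a membrane protein, with -0.53. Tm2d2 was not called between the groups (-0.11 ± 0.045 (SE), limma adjusted p = 0.354).

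Ranking the mice by adipose Adgre1 in place of Cd68 kept 19 of the 20 high and 17 of the 20 low mice, and none moved to the opposite group. With that ranking 78 liver genes were called, 56 of them shared with the 85.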

How the data were processed

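Liver, muscle and adipose RNA was sequenced as stranded total RNA, and the deposited tables hold TPM. Per the submitters' processing notes, FastQC, Trim Galore 0.4.4 and Bowtie 1.2.2 were used, and a quantifier and a genome build were not given in the sources used here. Each liver library was scaled to a common level by a trimmed mean of ratios over protein-coding genes of the nuclear genome, Lars2 left out (30% trimmed by ratio, 5% by level), and adipose libraries likewise over their 2728 genes. Coding genes came from GENCODE M21, which held 99.1% of the 47643 liver gene IDs. Genes with at least 1 scaled TPM in at least 14 of the 40 libraries were tested with limma 3.58.1 (R 4.3.3; trend, robust) on log2(scaled TPM + 1), with Benjamini-Hochberg adjustment over all genes tested and a threshold of 0.05. TPM keep no read numbers, so depth and its precision are unknown. Library measures were compared by permutation (100000 resamples; scipy 1.17.1). Scripts for the tables and plots used Python 3.11.15, pandas 2.3.3, numpy 2.4.6 and matplotlib 3.10.9, and the fit was tested on simulated data. Intervals of 95% used the SE and 38 residual degrees of freedom.

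The control-diet contrast and the diet difference used the same fit. Named genes were the 15 largest rises and falls among calls that average at least 5 scaled TPM, up to 4 genes with the smallest p in each list, 14 genes named for their role as markers, and the 5 genes of highest and lowest Spearman's rho to adipose Cd68. The members, lists and tests were chosen with earlier results of these data known. Alternatives changed the scaling, pseudocount, filter, group size, ranking, library minimums, covariates and limma settings. Values of some single genes are not reported here, and the counts and medians of their lists include them.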

Additional observations from a re-analysis of the deposited data

How the results depend on the processing

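On the high-fat diet, the 0.686% of genes called (85) became 0% with TPM as deposited, 0.0917% (28) with no filter on low values, 1.31% (96) with only genes averaging at least 5 scaled TPM, 0.170% (21) with 25 against 25 mice and 1.09% with a slope on log2 adipose Cd68 over all eligible mice. Of the calls of the slope 75.2% were higher, against 89.4% of the 85. Without the mice whose adipose library did not match their liver the share was 0.0238% (3), an alternative chosen after seeing the data, as were leaving out libraries under 40% coding and leaving out each mouse. With each mouse left out it ran from 0.413% (51, without Liver-128) to 0.891% (110, without Liver-103-2). The other alternatives gave between 0.629% and 1.00%. The cause of these shifts was not tested. On the control diet, the 0% became 0.299% (22) with only genes averaging at least 5 scaled TPM, 0.00812% (1) with 15 against 15 mice, 0.0546% (7) with the slope, 0.0725% (9) ranked by adipose Adgre1, 0.0645% (8) ranked by Cd68 in TPM as deposited, 0.0564% (7) without libraries of a low scale factor and 0.216% (27) without the mice whose adipose library did not match their liver. The diet difference called 0 genes in each alternative run. Of 1930 values of called genes under alternatives, 1454 kept the call, 476 lost it and 0 reversed, and of 3001 values of genes not called, 42 gained it. The alternatives use mice in which the calls were made, so the lack of reversals is no separate support. No paired analysis was possible because the high and low groups hold different mice. Read numbers are not part of TPM, so the differences that depth hid are not known.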

Other observations

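Some genes of the lists that did not pass the threshold had estimated differences of opposite sign on the 2 diets. No gene passed the test of the diet difference, so a difference in sign was not shown. The metallothioneins Mt1 and Mt2, which bind zinc and copper, had differences of 0.78 ± 0.35 (SE) and 0.91 ± 0.43 (SE) on the high-fat diet and of -0.98 ± 0.50 (SE) and -1.59 ± 0.46 (SE) on the control diet. The test of the diet difference gave Mt2 an unadjusted p of 0.000174 and a limma adjusted p of 0.321. C9, a complement protein of the membrane attack complex, spanned 259.9 to 934 (median 482) scaled TPM in the low and 183 to 565 (median 335) in the high livers on the high-fat diet (-0.52 ± 0.14 (SE), limma adjusted p = 0.0633), against 0.30 ± 0.16 (SE) on the control diet. Atf4, a transcription factor of the stress response, differed by -0.23 ± 0.10 (SE) and 0.28 ± 0.092 (SE) on the 2 diets, with a limma adjusted p of 0.321 for the diet difference.

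Inhbe, a hormone subunit of hepatocytes, had medians of 17.9 and 23.5 scaled TPM and differed by 0.37 ± 0.095 (SE) (limma adjusted p = 0.0529) on the high-fat and by 0.60 ± 0.15 (SE) (limma adjusted p = 0.107) on the control diet. Of 6 tested genes of dendritic cells and MHC class II, 0 were called, 0 differences were positive and the median was -0.28. H2-Eb1, an MHC class II chain whose alleles differ between founder strains, spanned 5.37 to 61.9 (median 12.7) in the low and 0 to 21.3 (median 7.85) in the high livers (limma adjusted p = 0.212). Serpina1e, a protease inhibitor of the liver from a family of near-identical copies, spanned 731 to 8909 (median 5299.6) and 9.40 to 8944 (median 2033) (limma adjusted p = 0.253). Lcn2, an acute phase protein, spanned 0 to 35.3 (median 3.23) in the low and 0.0928 to 1891 (median 5.45) in the high livers (limma adjusted p = 0.587). Of 25 genes of endoplasmic reticulum stress 0 were called, with 20 positive differences and a median of 0.14.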
